A study of Mus musculus with 8 samples.

Results

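Of the 10 listed genes of class I antigen presentation and the immunoproteasome, 9 were measured, among 22180 genes on 8 arrays, in STING-/- mouse embryonic fibroblasts (MEFs). The genes were listed by name, for each gene the probe set with the highest mean signal among those mapped to that symbol only was read, and H2-D1 was skipped because its only probe set here was shared with H2-Q2. STING is the endoplasmic reticulum adaptor through which cytosolic DNA leads to interferon production. All 4 lines were STING-/- MEFs, labelled as primary cells, and were reconstituted with the empty vector pBabe, with human STING (hSTING), with N154S, the mutation that the series' design assigns to SAVI, a STING-associated autoinflammatory disease, or with the variant R284S. Each line had 1 control array and 1 array after double-stranded DNA (dsDNA) delivered with a Lipofectamine reagent for 9 h. Each line was thus 1 cell population with no replicate of a construct and treatment, and any difference between populations is part of a difference between constructs. The sources used here do not state the promoter that drove each construct, the mouse strain, or whether control cells received the transfection reagent.

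Class I molecules display peptides from inside the cell to CD8+ T cells. A heavy chain (in mice H2-K1, H2-D1 and, among the non-classical forms, H2-Q4) pairs with the light chain beta 2-microglobulin, encoded by B2m. The peptides are cut by the proteasome, whose catalytic subunits are replaced by Psmb8, Psmb9 and Psmb10 in the immunoproteasome, are carried into the endoplasmic reticulum by the Tap1 and Tap2 transporter, and are loaded with the help of tapasin, encoded by Tapbp. Interferons are known inducers of these genes.

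Upstream bases of the heavy chain genes H2-K1 and H2-Q4, of B2m and of the interval between Tap1 and Psmb9 are shown as examples. These genes were all higher in the STING lines, but so were the other measured genes, so this does not set them apart. H2-D1, which was not measured, is not shown. The bases are RefSeq sequences of build GRCm38.p6, found for 9 of the 10 listed genes (all but Tap2), and run 5′ to 3′ on the gene's strand. H2-K1 lies at chr17:34000349-34000468 on the minus strand, H2-Q4 at chr17:35379434-35379576 on the plus strand and B2m at chr2:122147538-122147648 on the plus strand. The Tap1 stretch at chr17:34187331-34187484 is given on the plus strand. Capitals mark matches, on either strand, to 5 searched motif cores.
H2-K1: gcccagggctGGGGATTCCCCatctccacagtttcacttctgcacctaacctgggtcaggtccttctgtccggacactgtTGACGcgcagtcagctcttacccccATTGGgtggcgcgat
H2-Q4: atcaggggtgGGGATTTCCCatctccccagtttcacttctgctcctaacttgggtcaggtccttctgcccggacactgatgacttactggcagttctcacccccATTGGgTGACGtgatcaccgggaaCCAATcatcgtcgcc
B2m: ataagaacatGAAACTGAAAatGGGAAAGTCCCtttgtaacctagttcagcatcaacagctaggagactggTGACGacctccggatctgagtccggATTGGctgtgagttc
Tap1: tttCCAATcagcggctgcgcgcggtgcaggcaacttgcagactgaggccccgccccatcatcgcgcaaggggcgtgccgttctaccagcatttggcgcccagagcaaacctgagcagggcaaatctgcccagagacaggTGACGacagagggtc

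The cores were searched on both strands of windows of 300 bases around the start sites. Matches of different cores did not overlap in the stretches shown, and matches of the NF-kB core on opposite strands did. The NF-kB core GGGANNNNCC was found for H2-K1, H2-D1, H2-Q4 and B2m, 4 of the 9 genes with a window, against 20.7% of all 32851 windows. The X2 box core TGACG was searched as part of the module through which class I genes are transcribed. It was found for these 4 and for Tap1 and Psmb9, against 20.8%. In the stretches shown it lay upstream of the ATTGG match in H2-K1 and B2m, but downstream of it in H2-Q4. A TGACG match alone therefore does not place it in that module. The CCAAT box was found for 7 of the 9 genes, Tapbp being the addition, against 37.4%. The core of the interferon-stimulated response element, GAAANNGAAA, was found for B2m alone, against 3.44%, and the gamma-activated site core TTCNNNGAA for Psmb8 alone, against 8.3%. Tap1 and Psmb9 are transcribed away from each other, with 225 bases between their start sites, and their windows share 275 bases. Their X2 box core and CCAAT matches are the same bases, counted for both genes. The counts are of genes and the shares of windows, and a gene can have several windows. These matches describe letters in a window and not sites of binding. Stretches close to a core but not equal to it were not counted, so a missing match does not show that an element is absent.

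The deposited values are log2 array signals, on which a difference of 1 is 2-fold. Dim signals are given as values and not as a lack of transcript, and signals of different genes are not compared since probe sets differ in brightness. The median of the 22180 genes was 4.42 to 4.47 on the 8 arrays, and a fold whose dimmer signal lay below that median is given as a lower bound against it. The 10 fibroblast markers (Col1a1, Vim and others) were all at or above the median on all 8 arrays. Of the 8 macrophage and dendritic markers 2 or 3 were, depending on the array, with Ptprc at 2.48 to 2.67, and of the 4 measured lymphocyte markers 0 were. Endothelial and epithelial markers each had 1 or 2 of 4 at or above it. The RNA came from whole cultures, in which fewer cells of a type and less RNA per cell cannot be told apart. Heavy chain probe sets can cross-react with near-identical H2 genes and depend on the strain's alleles, so H2-K1 and H2-Q4 are uncertain as to which copy was read.

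**Figure D1:**
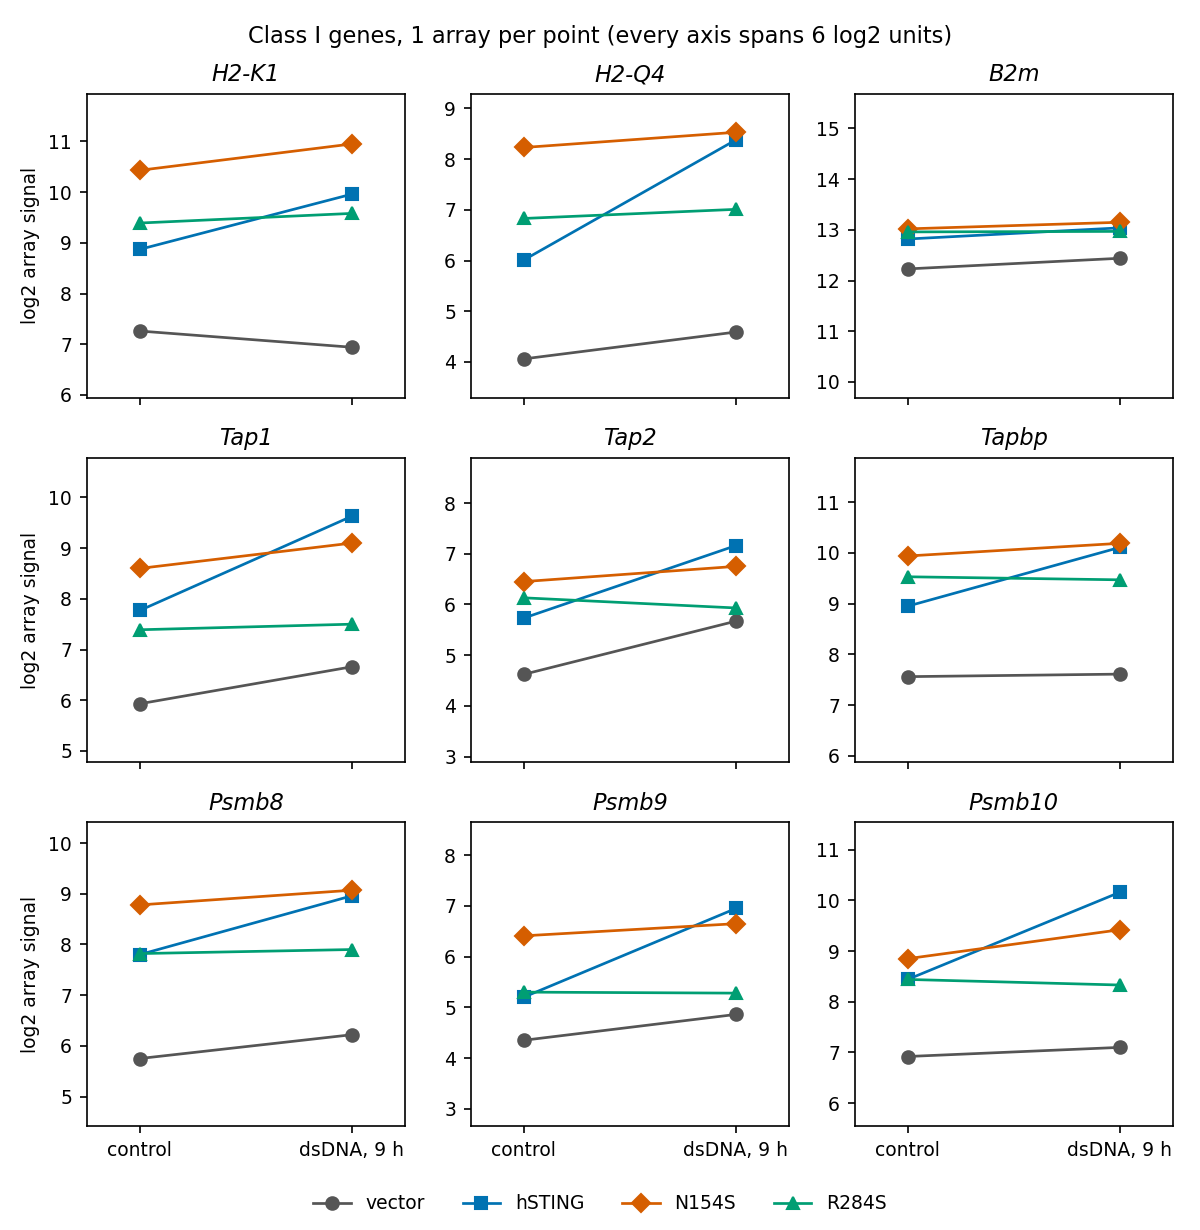
Log2 array signal (vertical axis) of the 9 measured genes in control cells and after dsDNA for 9 h (horizontal axis), with 1 array per point and lines joining the arrays of a cell line. For every gene the 6 arrays of the STING lines lie above both vector arrays, and the hSTING line has the steepest slope.

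The heavy chains had the widest spread. H2-K1, the classical heavy chain, read 7.26 in control cells with vector, 8.87 with hSTING, 10.43 with N154S and 9.39 with R284S, and after dsDNA 6.94, 9.96, 10.95 and 9.58. H2-Q4, a non-classical heavy chain, read 4.06, 6.01, 8.23 and 6.83 in control cells in the same order, and 4.59, 8.38, 8.53 and 7.01 after dsDNA. In both genes the vector arrays were low, both N154S arrays were high, and the hSTING control array was the lowest of the STING lines. H2-Q4 had a second, dimmer probe set that read 3.26 to 5.12 over the 8 arrays, so its probe sets did not move alike. The light chain gene B2m was bright throughout, at 12.23, 12.82, 13.02 and 12.96 in control cells and 12.44, 13.04, 13.15 and 12.97 after dsDNA. Its range of 0.92 was the smallest of the 9 genes, and 13.15 was also the highest signal of any probe set on that array. Whether the top of the scale narrowed this range was not tested.

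The peptide transporter genes were highest in hSTING cells after dsDNA. Tap1 read 5.93, 7.77, 8.60 and 7.39 in control cells with vector, hSTING, N154S and R284S, and 6.66, 9.63, 9.10 and 7.50 after dsDNA. Tap2 read 4.62, 5.73, 6.45 and 6.13 in control cells and 5.67, 7.16, 6.75 and 5.93 after dsDNA. The lowest STING array for Tap2 was thus only 0.06 above the vector array with dsDNA, the narrowest gap of the 9 genes. Tapbp, for the loading factor tapasin, read 7.56, 8.95, 9.94 and 9.53 in control cells and 7.61, 10.11, 10.19 and 9.47 after dsDNA. Here the vector arrays were 1.34 below the lowest STING array. The second, dimmer Tapbp probe set read 5.20 to 5.97 and did not show a difference of this size.

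The immunoproteasome subunits showed the same order of control cells, with vector lowest and N154S highest. Psmb8, which takes the place of Psmb5, read 5.75, 7.80, 8.78 and 7.82 in control cells and 6.22, 8.96, 9.07 and 7.90 after dsDNA. Psmb9, which takes the place of Psmb6, read 4.35, 5.20, 6.41 and 5.30 in control cells and 4.86, 6.95, 6.65 and 5.28 after dsDNA. Psmb10, which takes the place of Psmb7, read 6.92, 8.44, 8.85 and 8.44 in control cells and 7.10, 10.16, 9.42 and 8.33 after dsDNA. hSTING and R284S control cells were close for these 3 genes, within 0.10. The replaced subunits did not share the pattern, with ranges over the 8 arrays of 0.35 for Psmb5, 0.23 for Psmb6 and 0.17 for Psmb7. Over the 9 genes, each of the 6 arrays of STING lines lay above both vector arrays in 9, against 5.71% of all genes. The lowest array was the vector control in 8 genes and, for H2-K1, the vector array with dsDNA. The highest was N154S with dsDNA in 5 genes (H2-K1, H2-Q4, B2m, Tapbp and Psmb8) and hSTING with dsDNA in Tap1, Tap2, Psmb9 and Psmb10.

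The comparison of control cells asked how far each STING construct differed from the vector without added DNA. It sets 1 array against 1 and has no test. With hSTING 7 of the 9 genes were 2-fold or more higher than with vector (all but B2m and Psmb9), against 0.415% of all genes. Psmb8 was 4.14-fold, Tap1 3.58-fold, H2-K1 3.05-fold and H2-Q4 at least 2.95-fold higher. With N154S 8 of 9 were, all but B2m, against 1.01%. H2-Q4 was at least 13.7-fold, H2-K1 9.00-fold, Psmb8 8.17-fold and Tap1 6.36-fold higher, while B2m was 1.73-fold higher. With R284S 7 of 9 were, against 1.15%, the same genes as with hSTING, with H2-Q4 at least 5.21-fold, H2-K1 4.38-fold and Psmb8 4.20-fold higher. The median difference over the 9 genes was 1.52, 2.38 and 1.52 for hSTING, N154S and R284S, against -0.01, 0.00 and 0.00 over all genes. These 3 comparisons share the vector control array.

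A fit over all 8 arrays asked which genes differed between lines on average over control and dsDNA cells. It was an additive limma model of construct and treatment with Benjamini-Hochberg adjustment over all 22180 genes, so its error comes from how unequally the lines responded to dsDNA and not from replicate cultures. In N154S against vector cells 6 of the 9 genes rose, against 0.708% of all genes. H2-K1 was higher by 3.59 (SE 0.30, limma adjusted p = 0.00616) and Psmb8 by 2.94 (SE 0.24, limma adjusted p = 0.00616). Tapbp rose by 2.48 (SE 0.28, limma adjusted p = 0.0125) and H2-Q4 by at least 3.86 (limma adjusted p = 0.0164). Tap1 rose by 2.56 (SE 0.36, limma adjusted p = 0.0288) and B2m by 0.75 (SE 0.12, limma adjusted p = 0.0399). Psmb10, Psmb9 and Tap2 did not pass, at 2.12, at least 1.88 and 1.46, with limma adjusted p values of 0.0595, 0.0711 and 0.123. The calls of H2-Q4 and Tap1 were lost with trend and robust variances (adjusted p = 0.0801 and 0.0845), and that of B2m without the R284S pair of arrays (adjusted p = 0.0737).

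In R284S against vector cells 3 of the 9 genes rose, against 1.02% of all genes. H2-K1 was higher by 2.38 (SE 0.30, limma adjusted p = 0.0139), Psmb8 by 1.88 (SE 0.24, limma adjusted p = 0.0162) and Tapbp by 1.92 (SE 0.28, limma adjusted p = 0.0222). H2-Q4, at least 2.40 higher, and B2m, 0.63 higher, lay just outside the threshold with limma adjusted p values of 0.0517 and 0.0553. Psmb9 had the largest adjusted p of the 9, at least 0.63 higher (limma adjusted p = 0.485). In hSTING against vector cells 1 gene rose, Psmb8 by 2.40 (SE 0.24, limma adjusted p = 0.0305), against 0.0992% of all genes. The other 8 genes did not pass, H2-Q4 at least 2.68 higher and the rest 0.59 to 2.40 higher, although all 9 had an unadjusted p under 0.05, against 9.28% of all genes. In R284S cells 8 of 9 had, against 14.3%. The counts of passing genes do not rank the lines by size of difference. The median fitted difference from vector was 2.29 in hSTING, 2.48 in N154S and 1.38 in R284S cells, and R284S lay above hSTING for 2 of 9 genes. H2-K1 was at 2.31 in hSTING cells (limma adjusted p = 0.0632), near its 2.38 in R284S cells. Psmb8 was the gene that passed in each of the 3 lines. With trend and robust variances the Tapbp call in R284S cells was lost (adjusted p = 0.0551) and B2m passed (adjusted p = 0.000856). Without the N154S pair of arrays 0 of 9 passed in either comparison, and the R284S count became 6 without the hSTING pair and 5 with dim genes left out. The shares of all genes under these alternatives are not given. Some fibroblast markers moved the other way with the same lines. Of the 10, Col3a1, Pdgfrb and Col1a1 fell in N154S and Col3a1, Lum, Col1a1, Thy1 and Pdgfrb in R284S cells against vector, where 0.609% and 1.02% of all genes fell. In hSTING cells 0 of the 10 fell, against 0% of all genes. The markers' median difference was -0.26, -0.65 and -0.88 in hSTING, N154S and R284S cells, and their median signal ran from 9.90 to 10.78 over the arrays. Their part in the class I differences was not tested.

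**Figure D2:**
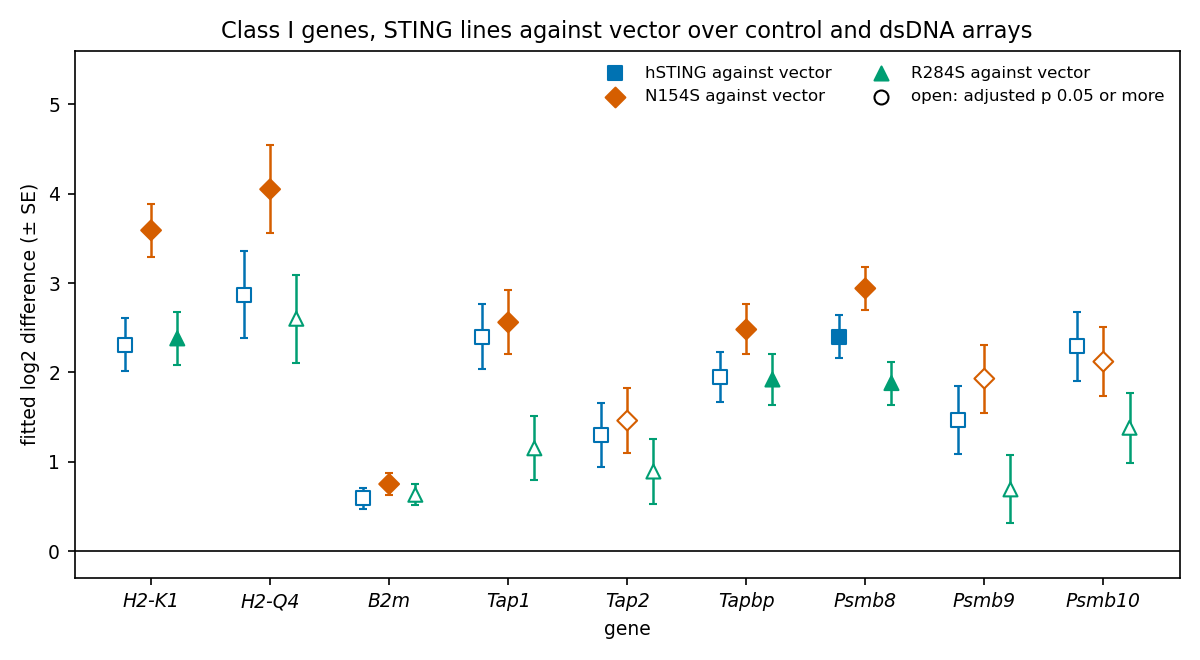
Fitted log2 difference from vector cells (vertical axis, ± SE) over control and dsDNA arrays for the 9 genes (horizontal axis), with 1 marker shape per STING line, filled where the limma adjusted p is under 0.05. N154S has 6 filled markers, R284S 3 and hSTING 1, and every marker lies above 0. A filled marker need not be a larger difference than an open one. The H2-Q4 and Psmb9 markers are fitted values, not lower bounds.

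Among the STING lines, N154S control cells had higher signals than hSTING control cells in 9 of 9 genes, 3 of them by 2-fold or more, against 0.532% of all genes. These were H2-Q4 (4.66-fold), H2-K1 (2.95-fold) and Psmb9 (2.31-fold), with Tapbp at 1.99-fold and Psmb8 at 1.97-fold. R284S control cells differed less from hSTING control cells, from -0.38 for Tap1 to 0.82 for H2-Q4, and 0 of 9 genes were 2-fold or more higher, against 0.703%. R284S control cells were below N154S control cells in 9 of 9 genes, 4 of them by 2-fold or more, against 0.302% of all genes. These were H2-Q4 (2.64-fold), Tap1 (2.31-fold), Psmb9 (2.16-fold) and H2-K1 (2.06-fold).

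In the limma fit over both treatments 0 of 9 genes passed in any of these 3 comparisons, against 0% of all genes for N154S and 0.951% for R284S against hSTING, and 0.00902% for R284S against N154S. At an unadjusted p under 0.05, there were 2 of 9 genes for N154S against hSTING, where 8.9% of all genes had such a p, and 5 of 9 for R284S against N154S, where 7.07% did. For R284S against hSTING there was 1 of 9, near the share of 13.7% over all genes. For R284S against N154S those 5 were Psmb8 at -1.06 (SE 0.24), H2-K1 at -1.21 (SE 0.30), Tap1 at -1.41 (SE 0.36), Psmb9 at -1.24 (SE 0.38) and H2-Q4 at -1.46 (SE 0.49), with limma adjusted p values of 0.506 to 0.62. The count stayed at 0 in every alternative that was run. A difference between the mutants over both treatments was therefore not shown for any of the 9 genes, and the misses do not show that the lines were alike.

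The dsDNA comparison asked how each line responded to transfected DNA, again with 1 array against 1. In hSTING cells 8 of 9 genes were 2-fold or more higher after dsDNA, against 2.01% of all genes. H2-Q4 changed by 2.37 on the log2 scale, Tap1 by 1.86, Psmb9 by 1.75, Psmb10 by 1.72 and Tap2 by 1.43. Psmb8 and Tapbp changed by 1.16, H2-K1 by 1.09 and B2m by 0.22. In N154S cells 0 of 9 genes were 2-fold or more higher, against 0.379%, with changes of 0.13 for B2m to 0.57 for Psmb10. In R284S cells the changes lay between -0.20 for Tap2 and 0.19 for H2-K1, with 5 genes above 0 and 4 below, and 0 were 2-fold or more higher, against 0.0271%. The median change was 1.43 in hSTING, 0.30 in N154S and 0.01 in R284S cells, against -0.01, -0.01 and 0.00 over all genes, and in vector cells it was 0.47.

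Vector cells, which carry no STING construct, also had higher signals for most of these genes after dsDNA. Tap2 was the gene that was 2-fold or more higher, by 1.05, against 0.149% of all genes. Tap1 changed by 0.73, Psmb8 by 0.47, Psmb9 by at least 0.41, B2m by 0.21, Psmb10 by 0.18, H2-Q4 by at least 0.14 and Tapbp by 0.05. H2-K1 changed by -0.32. For Tap1, Tap2, B2m, Psmb8 and Psmb9, 5 of the 9 genes, the change in vector cells was larger than in N154S and in R284S cells. The share of all genes with this order is not given, so the count cannot be set against a background. The median change in vector cells was 0.47, and 0.21 with dim signals set to the array median, against 0.00 over all genes.

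**Figure D3:**
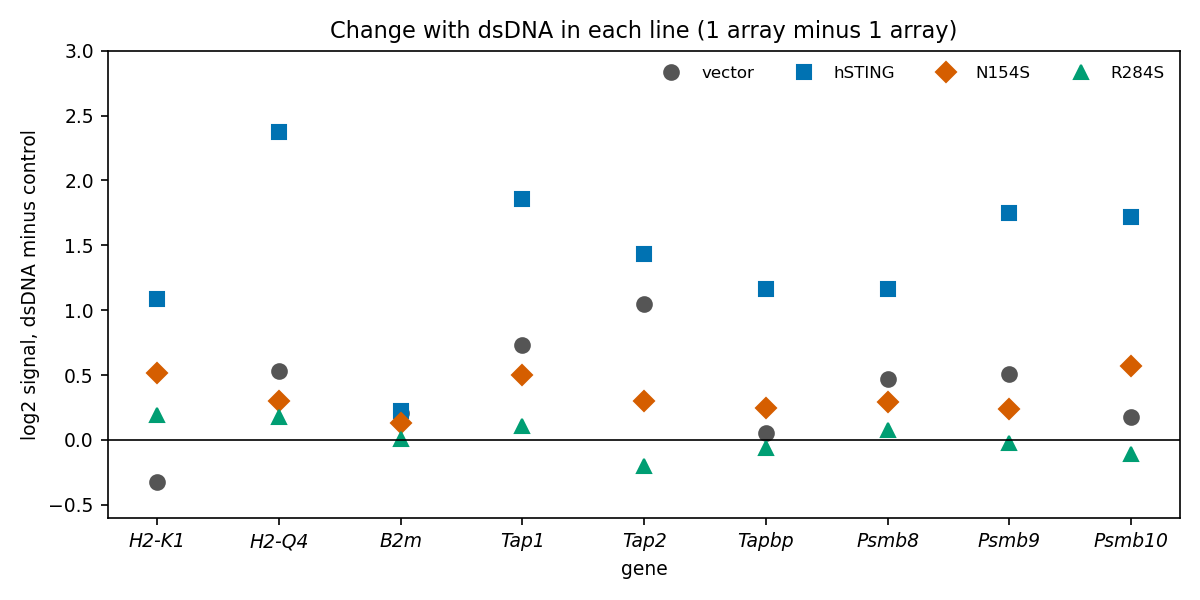
Log2 signal after dsDNA minus that in control cells (vertical axis) for the 9 genes (horizontal axis), with 1 point per cell line from 1 pair of arrays. The hSTING point is the highest for each gene, by 0.01 for B2m, and the R284S points lie between -0.20 and 0.19. The vector points of H2-Q4 and Psmb9 are differences of deposited signals, not lower bounds.

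The level in mutant control cells was then set beside that of hSTING cells after dsDNA. N154S control cells read 0.47 above hSTING cells with dsDNA for H2-K1 and below them for the other 8 genes. For B2m, H2-Q4, Tapbp and Psmb8 the gap was -0.02 to -0.18, for Psmb9, Tap2 and Tap1 -0.54, -0.71 and -1.03, and for Psmb10 -1.31. R284S control cells were below hSTING cells with dsDNA in 9 of 9 genes, from -0.08 for B2m to -2.24 for Tap1, with a median of -1.14. The transporter genes and Psmb9 and Psmb10 were thus further below the stimulated hSTING level than Tapbp and H2-K1 in both mutants. No test was made between these arrays.

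The average dsDNA effect over the 4 lines was above 0 for 9 of 9 genes in the limma fit, from 0.14 for B2m to 0.84 for H2-Q4, and 0 passed, against 0% of all genes. At an unadjusted p under 0.05 there were 4, against 10.8% of all genes. Whether the 3 STING lines together responded more than the vector line was tested in a second limma fit with 2 residual degrees of freedom, in which 0 of 9 genes passed, against 0% of all genes, and 1 had an unadjusted p under 0.05, against 3.6%. A further limma fit set the dsDNA effect of the hSTING line against that of the other 3 lines and was chosen after the values had been seen. Here 0 of 9 genes passed, against 0.0316% of all genes, and 7 had an unadjusted p under 0.05, against 11.2%, with differences of 0.10 for B2m to 2.03 for H2-Q4 and a smallest limma adjusted p of 0.108. With trend and robust variances 6 of the 9 passed, and with dim genes left out 1 did. The shares of all genes under these settings are not given, so neither count can be set against a background.

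Other genes of the pathway were taken from lists by name. Those lists were chosen with earlier results of these data known. Of the other class I heavy chains, 16 of 25 were measured. In N154S against vector cells Hfe, H2-T23, H2-T10 and H2-Q5 rose, against 0.708% of all genes. Hfe, an iron regulator that binds beta 2-microglobulin, was at 1.44 (SE 0.15, limma adjusted p = 0.0107). H2-T23, the mouse Qa-1 heavy chain, was at 1.60 (SE 0.18, limma adjusted p = 0.0134), H2-T10 at 1.80 and H2-Q5, with 1 vector signal below the array median, at 3.23 or more. In R284S cells Hfe rose by 1.34 and H2-Q10 by 0.77, against 1.02% of all genes. In hSTING cells 0 of 16 passed, where 0.0992% of all genes rose. There Hfe was at 0.80, H2-T23 at 1.02, H2-T10 at 1.10, H2-Q5 at 1.54 or more and H2-Q10 at 0.06. The list's median was 0.18, 0.29 and 0.34 in hSTING, N154S and R284S cells. H2-Q5 is 1 of the near-identical H2 genes whose probes may cross-react.

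Of the 10 measured genes for peptide loading and trimming, Erap1, which trims peptides in the endoplasmic reticulum, rose in both mutant lines, by 2.13 in N154S (SE 0.26, limma adjusted p = 0.0183) and 1.50 in R284S cells (SE 0.26, limma adjusted p = 0.0427). In hSTING cells 0 of 10 passed, although Erap1, at 1.63 (SE 0.26, limma adjusted p = 0.133), was no lower than in R284S cells. Of all genes, 0.708%, 1.02% and 0.0992% rose in N154S, R284S and hSTING cells. Tapbpl, a tapasin relative, was at 1.08, 1.16 and 0.84 in hSTING, N154S and R284S cells and did not pass. The general chaperones stayed level, with ranges over the 8 arrays of 0.23 for Canx and 0.26 for Pdia3. The list's medians were 0.01, 0.16 and 0.20.

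The rest of the proteasome showed little difference between lines. Of 13 measured constitutive subunits of the 20S core and 17 of the 19S regulator, 0 passed in any of the 3 comparisons with vector, and list medians lay between 0.00 and 0.10. At an unadjusted p under 0.05 there were 0, 1 and 0 for the core and 0, 3 and 1 for the regulator in hSTING, N154S and R284S cells, near or below the shares of 9.28%, 14.9% and 14.3% over all genes. Of the 8 activators and assembly factors 0 passed, where 0.0992%, 0.708% and 1.02% of all genes rose in hSTING, N154S and R284S cells. Psme1, a subunit of the PA28 activator that interferon induces, was at 0.94, 1.02 and 0.74 (limma adjusted p = 0.355, 0.0836 and 0.174), while Psme2, its partner, was at 0.01, 0.14 and 0.19.

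Of 13 measured transcriptional regulators, Stat2, Irf2 and Irf9 rose in N154S cells, against 0.708% of all genes. Stat2 and Irf9 rose in R284S cells, against 1.02%. Stat2 and Irf9 belong to the complex that carries the type I interferon signal to the nucleus. Stat2 was at 3.18 in N154S (SE 0.35, limma adjusted p = 0.0119) and 2.69 in R284S cells (SE 0.35, limma adjusted p = 0.0163), and Irf9 at 1.66 and 1.40. In hSTING cells 0 of 13 passed, against 0.0992% of all genes, but Stat2 and Irf9 differed from vector by about as much as in R284S cells. Stat2 was at 2.72 (SE 0.35), Irf9 at 1.34 and Irf2 at 0.48, with limma adjusted p values of 0.0632, 0.239 and 0.403. Nlrc5, the transactivator of class I genes, read 4.13, 4.84, 5.73 and 4.86 in control cells with vector, hSTING, N154S and R284S, and 3.79, 6.96, 6.28 and 5.16 after dsDNA. Its vector signals lay below the array medians, so its difference from vector was at least 1.46, 1.57 and 0.57, and it did not pass (limma adjusted p = 0.427, 0.119 and 0.404). Its order in control cells and its highest array, hSTING with dsDNA, were those of Psmb9 and of Tap2. Its lowest array was vector with dsDNA, where that of Psmb9 and Tap2 was the vector control.

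**Figure D4:**
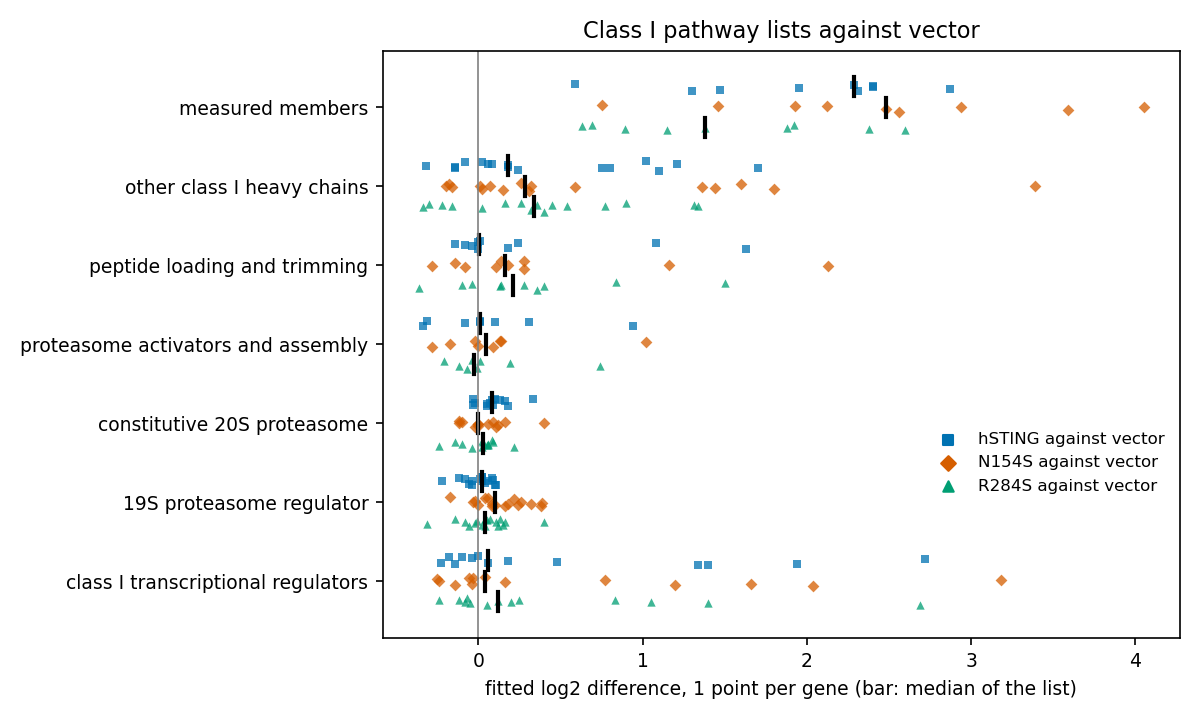
Fitted log2 difference from vector cells (horizontal axis) for the 9 measured genes and 6 lists of other pathway genes (vertical axis), with 1 point per gene, 1 marker shape per STING line and a bar at each list's median. The medians of the other lists lie between -0.03 and 0.34, below those of the 9 genes at 1.38 to 2.48.

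The genes most like the group were found from the root mean square distance, over the 8 arrays, between each gene's signal centred on its own mean and the median centred profile of the 9 genes. Among 12130 genes with a highest signal at or above the median, the 5 nearest were Erap1 at 0.14, Vnn1 at 0.16, Tdrd7 at 0.17, Mov10 at 0.19 and Samd9l at 0.20. Erap1 read 5.45, 6.60, 7.61 and 7.03 in control cells and 5.79, 7.90, 7.89 and 7.22 after dsDNA. Of the 9 genes themselves Tapbp was nearest to their median profile at 0.16 and B2m, with its narrow range, the farthest at 0.69. The arrays of 1 line share a cell population, so this likeness is a description of 4 lines.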

How the data were processed

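RNA of 8 samples was labelled with biotin for Affymetrix arrays (GeneChip WT PLUS), per the labels' protocols, and read with Affymetrix Expression Console 1.3.1.187, per the submitters' processing notes. How background was corrected and probes summarised, and the genome build, are not stated in these sources. The deposited values are log2 signals of 41345 probe sets; sorted values of the 8 arrays differed by at most 0.25, so the arrays had nearly one distribution when deposited. Probe sets with 1 symbol in the platform annotation (23521) were used, the brightest per gene, and 1814 with several symbols and 16010 unlisted were not. Differences of 2 arrays carry no test. Additive fits used limma 3.58.1 in R 4.3.3 (3 residual and 4.03 prior degrees of freedom), Benjamini-Hochberg adjusted across the 22180 genes with a threshold of 0.05. The additive fit was also run on simulated data with additive effects and independent noise. Such data lack the uneven dsDNA responses of these lines, so that run does not give the error rate here. A gene was 2-fold higher or lower if the brighter signal reached its array's median. All 9 measured genes were named; of other lists, at most 5 per contrast by adjusted p. The members and lists were chosen with earlier results of these data known. The number of arrays limits precision.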

Additional observations from a re-analysis of the deposited data

Results flagged for a closer look

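For 5 changes with dsDNA the sign was opposite to that in hSTING cells, and these differences between lines were not tested gene by gene. H2-K1 changed by -0.32 in vector cells, against 1.09 in hSTING cells. In R284S cells Tap2 changed by -0.20, Psmb10 by -0.11, Tapbp by -0.06 and Psmb9 by -0.02, where the same genes changed by 1.16 to 1.75 in hSTING cells.

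Probe sets that the comparisons did not use were also read. The probe set shared by H2-D1 and H2-Q2 read 4.79, 4.99, 5.53 and 4.76 in control cells with vector, hSTING, N154S and R284S and 4.20, 5.21, 4.89 and 4.93 after dsDNA, so its highest STING array was 0.74 above the higher vector array. For the second probe set of H2-Q4 this gap was 0.79, for that of Tapbp 0.55, and for the probe set shared by Tapbp and Zbtb22 0.43. Each gap compares 1 array with 1 array, and taking the highest of 6 STING arrays leans it towards a positive value. For the second H2-Q4 probe set, hSTING control (3.94) and R284S with dsDNA (3.26) read below both vector arrays (4.06 and 4.33). For the probe set of H2-D1 and H2-Q2, R284S control cells read below vector control cells.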

How the results depend on the processing

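The number of the 9 genes that rose against vector changed most with which lines entered the limma fit. For hSTING the 1 gene became 2 with trend and robust variances, 2 with arrays centred on their median and 0 without the N154S pair of arrays. For R284S the 3 genes became 5 with dim genes left out, 6 without the hSTING pair and 0 without the N154S pair. For N154S the 6 genes stayed within 4 to 8. These counts are given without the shares of all genes under the same settings. For the dsDNA effect of the STING lines against the vector line, leaving out the hSTING pair of arrays reversed H2-Q4 to -0.29, Tap1 to -0.42, Psmb8 to -0.28 and Psmb9 to -0.40, none of them past the threshold in either fit. The causes were not tested, beyond the smaller number of arrays. Of 603 fitted values of single genes under these alternatives, 572 kept their direction and side of the threshold, 8 lost a call, 19 gained one and 4 reversed. Quantile normalization and use of every probe set with 1 symbol changed 0 of 81 each. The counts of 2-fold genes stayed within 1.5 times under 3 alternatives, the widest shift being 7 to 5 for hSTING with the mean of all probe sets. No replicate could be left out, since each construct and treatment had 1 array.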

Other observations

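Of the 13 measured transcriptional regulators, 2 (Stat2 and Irf9) were 2-fold or more higher after dsDNA in vector cells, against 0.149% of all genes. These cells carry no STING construct. By any amount 8 regulators were higher and 5 lower, with a median change of 0.04. Stat2 read 5.74 in vector control cells and 7.34 with dsDNA, and Irf9 6.39 and 7.39, while Irf1, a transcription factor that binds class I promoters, read 5.15 and 5.40 and Nlrc5 4.13 and 3.79. In hSTING cells Irf1 read 5.59 and 7.75, and in R284S cells 6.09 and 6.12. These are values of 1 array each.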
